A study of Homo sapiens with 12 samples.

Results

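The subject here is the difference between 2 human pancreatic carcinoma cell lines, PANC-1 and MIA PaCa-2, in how their transcripts responded to siRNA against RBM3. Total RNA was sequenced from PANC-1 cells given a mixture of 2 siRNAs against RBM3 (replicates 1, 2 and 3), PANC-1 cells given a negative control siRNA (replicates 1, 2 and 4), MIA PaCa-2 cells given the RBM3 siRNAs (replicates 1, 2 and 5) and MIA PaCa-2 cells given the control siRNA (replicates 1, 2 and 4). All 4 groups were grown for 72 h, transfected with a lipid carrier at 25 nM siRNA for 4.5 h in medium without serum and left overnight in full medium, per the labels' protocols, so the carrier and the serum-free step are shared by the controls. The comparison used 11 of the 12 libraries, because PANC-1 siRNA replicate 3 carried transcripts of the other line. The line difference is the siRNA response in PANC-1 minus the siRNA response in MIA PaCa-2 on the log2 scale, so a positive value means a higher response in PANC-1. Each line is a single tumour-derived line, so the difference is between these lines and not between types of tumour, and the labels do not assign the 2 media they name to a line. One label field calls the material cytoplasmic RNA. Nothing states that replicates came from separate cultures, and the p-values therefore reflect the spread among these libraries, which may be technical.

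RBM3 is a cold-inducible RNA-binding protein that attaches to messenger RNAs and is linked to their stability and translation in many cell types. CCND3 encodes cyclin D3, one of the D-type cyclins, which activate the kinases CDK4 and CDK6 so that the retinoblastoma protein is phosphorylated and cells leave G1. Cohesin, which appears among the genes below, is the ring complex that holds sister chromatids together and shapes chromatin loops.

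Total counts ran from 14217185 to 39652502 per library. Markers of the 2 lines were chosen from earlier results of these data, so their separation follows in part from that choice. The summed level of 5 transcripts marking PANC-1 was 277 to 323 CPM in the 5 PANC-1 libraries used and at most 0.12 CPM in MIA PaCa-2. CPM are read counts scaled to the plain library total for these marker lists, and to the TMM-normalised library size for the genes below. The 4 transcripts marking MIA PaCa-2 summed to at most 3.92 CPM in those PANC-1 libraries and 2331 to 3339 CPM in MIA PaCa-2. Of the epithelial markers, KRT8, KRT18 and KRT19 were at 308 CPM or more in both lines, whereas EPCAM was at 22.6 to 31.0 CPM in the PANC-1 libraries used and at most 0.10 CPM in MIA PaCa-2, and KRT7 at 4.57 to 7.34 CPM in PANC-1 and at most 0.22 CPM in MIA PaCa-2. The 7 acinar and endocrine genes summed to at most 0.52 CPM, and 9 fibroblast genes, COL1A2 among them, summed to 149 to 241 CPM in PANC-1 and 977 to 1804 CPM in MIA PaCa-2. Within PANC-1, siRNA replicate 2 and control replicate 1 stood apart from siRNA replicate 1 and control replicates 2 and 4 on a first component holding 71.0% of the variance. Within MIA PaCa-2, siRNA replicate 5 and control replicate 2 lay at one end of a component holding 39.7%, with scores of -34.6 and -31.5. The other 4 libraries were spread more widely than in PANC-1, with siRNA replicate 1 at the far end, at 35.4. These splits run across the siRNA and control groups, and values without single libraries are given where they matter.

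The target fell in both lines. RBM3 had 94.5 and 195.5 CPM in the PANC-1 siRNA libraries, against 569, 429 and 435 CPM in the PANC-1 controls. In MIA PaCa-2 it had 44.8, 37.3 and 60.7 CPM in the siRNA libraries, against 255, 271 and 204 CPM in the controls. The groups did not overlap in either line, and PANC-1 siRNA replicate 2 kept the most transcript. By edgeR's quasi-likelihood test the response was a log2 change of -1.72 (SE 0.30) in PANC-1 and -2.36 (SE 0.27) in MIA PaCa-2. The Benjamini-Hochberg adjusted p by edgeR was 1 for PANC-1 and 0.0176 for MIA PaCa-2; DESeq2 called it in PANC-1 too, with adjusted p = 0.00165. The line difference was 0.64 (SE 0.38), with unadjusted p = 0.12 by edgeR. An exact two-sided permutation of the siRNA labels within each line gave p = 0.71 over 200 arrangements, where 0.005 is the smallest possible. It used the difference in mean log2 CPM, which was 0.57. Shuffled labels carry the knockdown itself into the reference values, so this permutation cannot judge a line difference in RBM3. Without PANC-1 siRNA replicate 2 the line difference was 0.025 and without replicate 1 it was 1.07, so the lines' depth of knockdown was not separated at this spread.

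CCND3 was higher after RBM3 siRNA in MIA PaCa-2 and near its control level in PANC-1. The gene had 56.4 and 53.3 CPM in the PANC-1 siRNA libraries, against 51.1, 60.7 and 54.6 CPM in the PANC-1 controls. In MIA PaCa-2 it had 40.3, 40.7 and 59.4 CPM in the siRNA libraries, against 18.5, 17.7 and 14.9 CPM in the controls. The PANC-1 groups overlapped fully, the MIA PaCa-2 groups did not overlap, and the 3 MIA PaCa-2 controls were the lowest of the 11 libraries. Mean CPM in siRNA over control libraries was 0.989 in PANC-1 and 2.75 in MIA PaCa-2. The line difference was -1.47 (SE 0.28), from a response of -0.02 (SE 0.21) in PANC-1 and 1.46 (SE 0.19) in MIA PaCa-2. The MIA PaCa-2 response passed the test by edgeR (adjusted p = 0.0417) and by DESeq2 (adjusted p = 1.75e-08), and the PANC-1 response had adjusted p = 1 by both. limma-voom did not call the MIA PaCa-2 response. The edgeR call held with other filters and with robust dispersion. It was lost with median-of-ratios factors, library size alone, depth as a covariate or a replicate block. Leaving out any one MIA PaCa-2 library or PANC-1 control also lost it. In bulk RNA, more transcript per cell and a larger share of cells with the transcript cannot be told apart.

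CCND3 was the one gene of 18422 tested that DESeq2 called for the line difference, with adjusted p = 0.0361, which is 0.00543% of the genes. edgeR called no gene (CCND3 had the smallest p, 0.000195, with adjusted p = 0.999995) and limma-voom called no gene; at an unadjusted p under 0.05 edgeR counted 358 genes (1.94%), DESeq2 305 (1.66%) and limma-voom 326 (1.77%). The size of the CCND3 difference lay between -1.57 and -1.19 in 26 alternative fits. The DESeq2 call was less steady: its adjusted p was 0.0234, 0.0472 and 0.00776 without MIA PaCa-2 siRNA replicate 1, 2 or 5, and it was lost when any one of the other 8 libraries was left out, with adjusted p from 0.092 to 0.999969.

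RefSeq lists 3 transcription start windows for CCND3 on the minus strand of chromosome 6, printed here because the counts are summed over the gene and cannot say which start served the MIA PaCa-2 transcripts. Each window runs from 250 bases before to 50 bases after the start on GRCh38.p14, at chr6:42048639-42048938, chr6:41941759-41942058 and chr6:41939156-41939455, with matches to the GC box letters GGGCGG or the reverse CCGCCC in capitals.
CCND3 distal window: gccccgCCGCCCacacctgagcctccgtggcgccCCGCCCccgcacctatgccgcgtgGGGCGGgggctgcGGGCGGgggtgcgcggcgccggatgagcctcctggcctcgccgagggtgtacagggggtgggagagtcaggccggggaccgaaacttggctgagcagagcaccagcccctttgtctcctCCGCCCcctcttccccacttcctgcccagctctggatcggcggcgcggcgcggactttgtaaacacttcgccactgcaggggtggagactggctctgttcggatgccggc
CCND3 middle window: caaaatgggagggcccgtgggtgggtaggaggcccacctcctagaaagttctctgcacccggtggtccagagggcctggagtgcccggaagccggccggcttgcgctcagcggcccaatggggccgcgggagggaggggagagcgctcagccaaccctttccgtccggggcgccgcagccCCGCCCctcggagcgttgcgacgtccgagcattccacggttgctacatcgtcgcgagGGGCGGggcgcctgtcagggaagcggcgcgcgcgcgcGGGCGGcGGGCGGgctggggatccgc
CCND3 proximal window: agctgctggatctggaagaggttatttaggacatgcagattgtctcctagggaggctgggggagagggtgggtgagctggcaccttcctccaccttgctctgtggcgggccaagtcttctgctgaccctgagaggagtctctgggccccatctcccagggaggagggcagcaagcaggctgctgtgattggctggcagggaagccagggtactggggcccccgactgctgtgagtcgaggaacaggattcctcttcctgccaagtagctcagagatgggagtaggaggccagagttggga
The distal window held 5 GC box matches, the middle window 4 and the proximal window 0, and no window held TATAAA or TTTATA. Of 35116 such windows in the table, 45% held a GC box match and 11.5% a TATA match. The match is a description of letters and says nothing of binding in these cells.

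**Figure D1:**
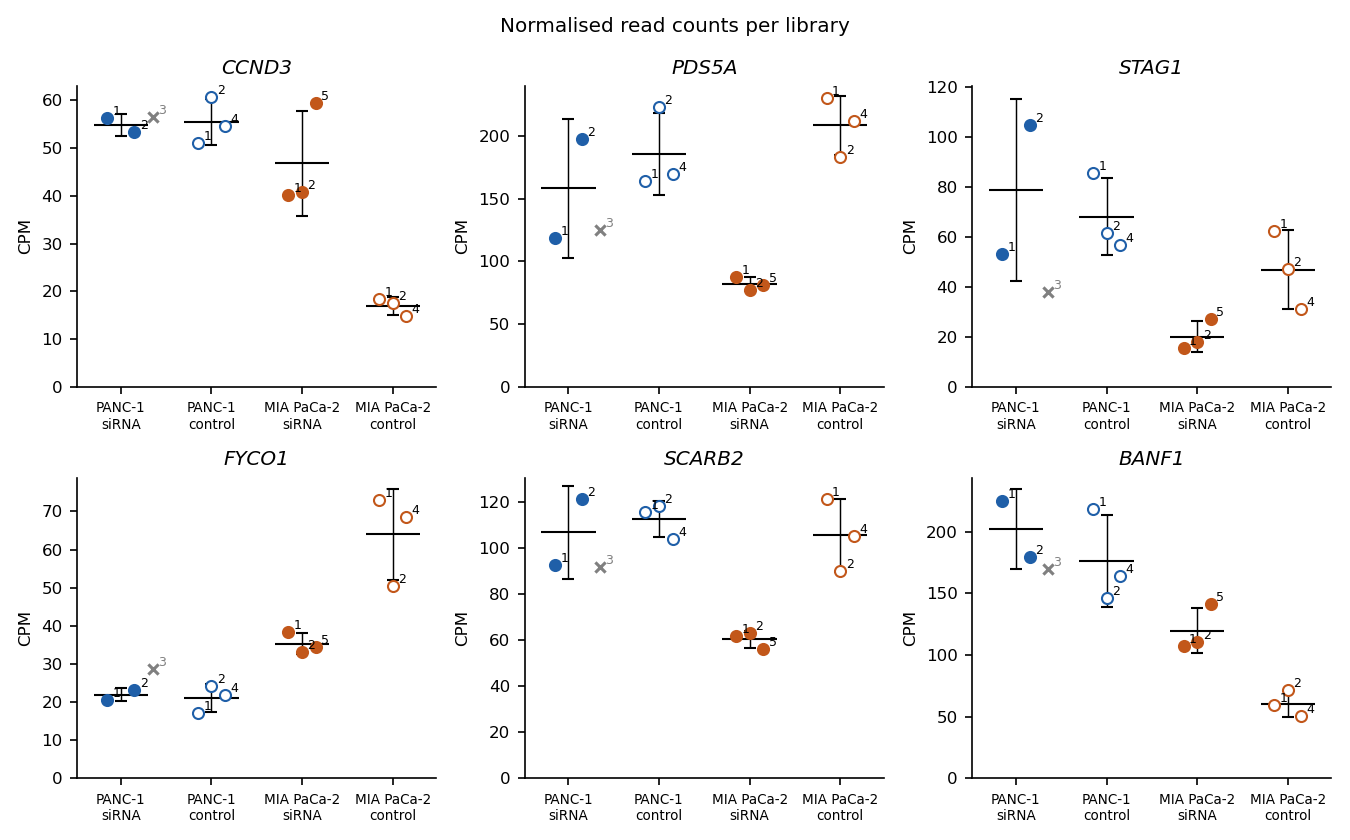
Normalised read counts (CPM, linear axis from 0) of 6 genes in each library, PANC-1 left and MIA PaCa-2 right, siRNA (filled) left of control (open); numbers are replicates, lines are means with SD, and the grey cross is PANC-1 siRNA replicate 3, which entered no mean or test. CCND3 sat between 14.9 and 18.5 CPM in the MIA PaCa-2 controls and at 40.3 CPM or more in every other library.

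CCND3 stood alone in its pathway at the unadjusted threshold. Of 13 tested members of the list of D-type cyclins, their kinases, retinoblastoma family members and CDK inhibitors, only CCND3 had an unadjusted p under 0.05, against a background of 0.803% of all genes in the positive and 1.14% in the negative direction. CCND1, which encodes cyclin D1, had 271 and 675 CPM in the PANC-1 siRNA libraries, against 637, 354 and 306 CPM in the controls, and 179, 163 and 237 CPM in the MIA PaCa-2 siRNA libraries, against 211, 228 and 217 CPM in the controls. Its groups overlapped in both lines, its 2 high PANC-1 libraries were the pair that stood apart, and its line difference was 0.31 (SE 0.47). CCND2, the cyclin D2 gene, was scarce, at 3.86 CPM or less in every library used, with a line difference of 0.026 (SE 1.21). CDK6 had the second smallest p of the list, with 117 and 206 CPM in the PANC-1 siRNA libraries, against 129, 152 and 132 CPM in the controls, and 121, 92.7 and 63.3 CPM in the MIA PaCa-2 siRNA libraries, against 109, 89.8 and 151 CPM in the controls. Its line difference was 0.57 (SE 0.40), with 0.11 without PANC-1 siRNA replicate 2 and 0.92 without PANC-1 siRNA replicate 1. Over the list the median line difference was 0.0082, against 0.013 over all genes tested.

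PDS5A and STAG1, both genes of cohesin, had siRNA values below every control in MIA PaCa-2, and STAG1 was not called for the MIA PaCa-2 response by edgeR or DESeq2. PDS5A, which encodes a regulator of cohesin's hold on chromatin, had 119 and 197 CPM in the PANC-1 siRNA libraries, against 164, 223 and 170 CPM in the controls. In MIA PaCa-2 it had 87.5, 77.1 and 81.2 CPM in the siRNA libraries, against 230, 184 and 212 CPM in the controls, and the groups did not overlap. The line difference was 1.12 (SE 0.29; unadjusted p = 0.00216, adjusted p = 0.999995 by edgeR), from -0.23 (SE 0.22) in PANC-1 and -1.35 (SE 0.20) in MIA PaCa-2. STAG1, which encodes a subunit of the cohesin ring, had 53.1 and 104.5 CPM in the PANC-1 siRNA libraries, against 85.6, 61.4 and 56.9 CPM in the controls, and 15.4, 17.8 and 27.0 CPM in the MIA PaCa-2 siRNA libraries, against 62.4, 47.1 and 31.0 CPM in the controls. The MIA PaCa-2 groups did not overlap, the PANC-1 siRNA libraries lay on either side of the 3 controls, and the line difference was 1.44 (SE 0.47). Both differences rest in part on PANC-1 siRNA replicate 2: without it PDS5A stood at 0.71 and STAG1 at 0.88.

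The start windows of both genes are printed so that they can be read beside those of CCND3, with the same marking. The PDS5A window lies at chr4:39977862-39978161 and the STAG1 window at chr3:136752329-136752628 on GRCh38.p14, both on the minus strand.
PDS5A window: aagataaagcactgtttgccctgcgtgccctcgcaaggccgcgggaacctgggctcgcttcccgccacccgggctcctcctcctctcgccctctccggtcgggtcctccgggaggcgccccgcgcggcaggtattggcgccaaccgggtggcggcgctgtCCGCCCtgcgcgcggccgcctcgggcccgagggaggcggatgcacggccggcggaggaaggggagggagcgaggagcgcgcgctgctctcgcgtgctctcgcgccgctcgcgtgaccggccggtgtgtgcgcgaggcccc
STAG1 window: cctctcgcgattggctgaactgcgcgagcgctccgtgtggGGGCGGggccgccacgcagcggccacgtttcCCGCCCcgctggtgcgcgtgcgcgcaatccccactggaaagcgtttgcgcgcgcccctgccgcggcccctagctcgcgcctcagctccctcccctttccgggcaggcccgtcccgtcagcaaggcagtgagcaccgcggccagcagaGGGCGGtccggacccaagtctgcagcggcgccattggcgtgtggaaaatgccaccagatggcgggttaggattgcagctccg
PDS5A held 1 GC box match and STAG1 3, and neither held a TATA match.

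The other 14 cohesin genes tested had unadjusted p above 0.05. Over all genes tested, 0.803% had an unadjusted p under 0.05 by edgeR in the positive direction. Of all 16 cohesin genes, 11 had a positive line difference, against 51.6% of all genes, with a median of 0.15. STAG2, the alternative subunit that takes the place of STAG1 in the ring, had 140 and 132 CPM in the PANC-1 siRNA libraries, against 98.3, 113 and 84.3 CPM in the controls, and 351, 313 and 191 CPM in the MIA PaCa-2 siRNA libraries, against 221, 134 and 155 CPM in the controls. Its fitted response was 0.46 (SE 0.26) in PANC-1 and 0.75 (SE 0.24) in MIA PaCa-2, and the line difference was -0.28 (SE 0.35). SMC1A, a core ring subunit, had a line difference of 0.32 (SE 0.24). The cohesin median changed sign, to as low as -0.027, in the fits with a replicate block.

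FYCO1 and SCARB2, both of the lysosome and autophagy list, had lower values after siRNA in MIA PaCa-2 and values close to control in PANC-1. FYCO1, an adaptor that couples autophagosomes to kinesin motors, had 20.7 and 23.1 CPM in the PANC-1 siRNA libraries, against 17.2, 24.3 and 21.95 CPM in the controls, and 38.3, 33.1 and 34.4 CPM in the MIA PaCa-2 siRNA libraries, against 73.0, 50.4 and 68.6 CPM in the controls. SCARB2, a lysosomal membrane protein that carries glucocerebrosidase, had 92.4 and 121 CPM in the PANC-1 siRNA libraries, against 115, 118 and 104 CPM in the controls, and 61.7, 63.1 and 56.0 CPM in the MIA PaCa-2 siRNA libraries, against 121, 89.8 and 105 CPM in the controls. For both genes the groups overlapped in PANC-1 and not in MIA PaCa-2. The line difference was 0.91 (SE 0.29) for FYCO1 and 0.73 (SE 0.24) for SCARB2. No other of the 30 tested members of the list had an unadjusted p under 0.05, and the list's median was -0.048. Over all genes tested, 0.803% had such a p by edgeR in the positive direction.

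Of the 10 genes with the smallest p in the positive direction and at least 2 CPM on average in each line, the remaining 6 had line differences from 0.60 to 1.51. MRC2, a receptor for collagen uptake, had 179 and 178 CPM in the PANC-1 siRNA libraries, against 160, 186 and 160 CPM in the controls, and 58.7, 55.4 and 65.2 CPM in the MIA PaCa-2 siRNA libraries, against 78.1, 91.4 and 88.3 CPM in the controls. Its siRNA and control libraries overlapped in PANC-1 only, and its line difference of 0.60 (SE 0.21) moved little, between 0.56 and 0.73, in the alternative fits. KIF3B, a kinesin motor subunit, had a line difference of 0.60 (SE 0.21), LINC00265, a long noncoding RNA at 5.51 CPM or less, 1.18 (SE 0.44), and MAP2, a microtubule-associated protein best known from neurons, 1.18 (SE 0.42). TRIM56, a ubiquitin ligase of antiviral signalling, had 0.87 (SE 0.32) and PKD1P4, a PKD1 pseudogene whose reads may be shared with its near-identical relatives, 1.51 (SE 0.54). Without PANC-1 siRNA replicate 2 the values were 0.43 for MAP2, 0.45 for TRIM56 and 0.87 for PKD1P4. MAP2, TRIM56 and PKD1P4 had their highest level of all libraries used in that one library, at 95.2, 47.9 and 30.2 CPM.

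**Figure D2:**
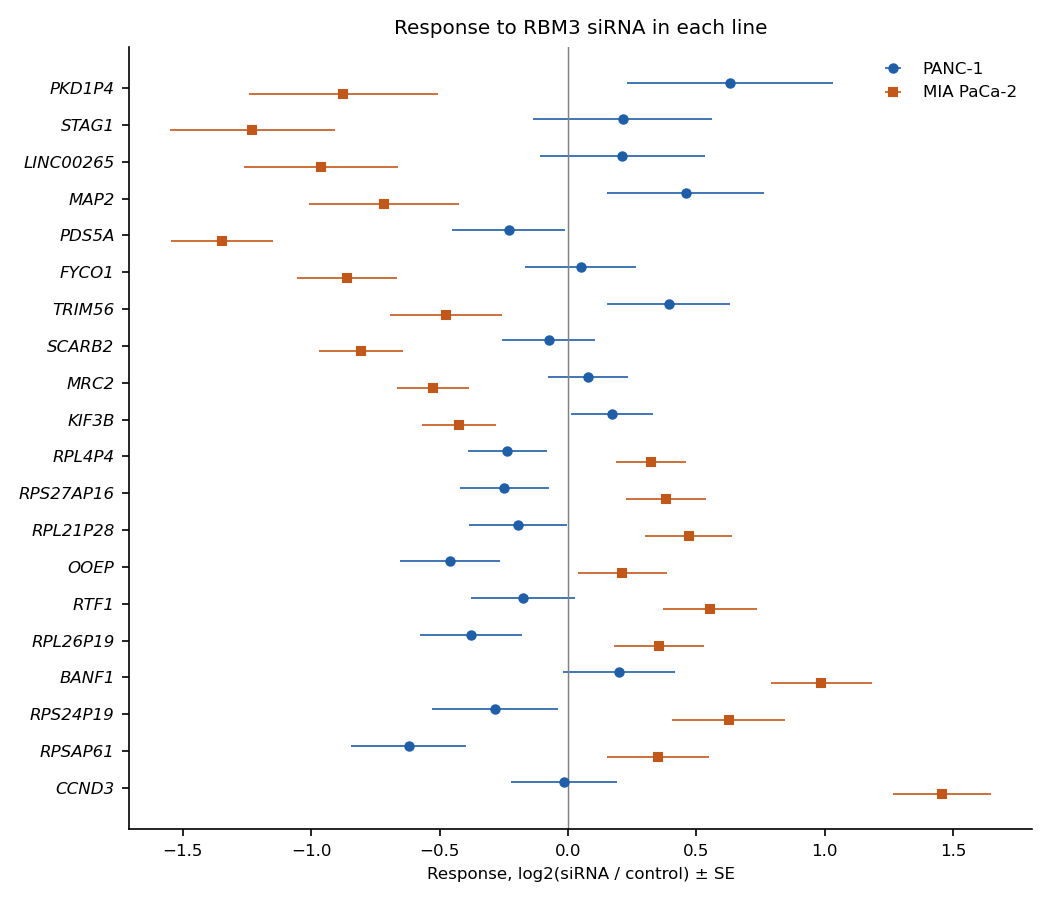
Fitted response to RBM3 siRNA (log2 of siRNA over control, with SE) in PANC-1 (circles) and MIA PaCa-2 (squares) for the 10 genes in each direction with the smallest p for the line difference. CCND3 has the widest gap among the lower genes, with -0.02 in PANC-1 and 1.46 in MIA PaCa-2.

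In the negative direction, BANF1 and RTF1 were higher after siRNA in MIA PaCa-2. BANF1, a small protein that binds DNA at the nuclear envelope, had 225 and 179 CPM in the PANC-1 siRNA libraries, against 218, 146 and 164 CPM in the controls, and 108, 111 and 141 CPM in the MIA PaCa-2 siRNA libraries, against 59.3, 71.5 and 50.5 CPM in the controls. RTF1, which acts with the PAF1 complex in transcription elongation, had 65.1 and 49.5 CPM in the PANC-1 siRNA libraries, against 80.5, 58.4 and 55.2 CPM in the controls, and 78.2, 90.4 and 82.2 CPM in the MIA PaCa-2 siRNA libraries, against 59.5, 59.9 and 51.6 CPM in the controls. For both, the groups overlapped in PANC-1 and not in MIA PaCa-2. The line difference was -0.79 (SE 0.30) for BANF1 and -0.73 (SE 0.27) for RTF1. OOEP, an oocyte gene listed here at 24.4 to 42.8 CPM over both lines, had 31.1 and 24.4 CPM in the PANC-1 siRNA libraries, against 33.2, 38.5 and 42.8 CPM in the controls, and 39.2, 40.05 and 39.8 CPM in the MIA PaCa-2 siRNA libraries, against 30.1, 36.0 and 36.8 CPM in the controls. Its groups separated in both lines in opposite directions, with a line difference of -0.67 (SE 0.26). The other 6 genes, with CCND3 the tenth, were pseudogenes of ribosomal protein genes, described below.

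Some of the smallest p-values belonged to genes with few reads. MCMDC2, known from meiotic recombination in mouse, had 203 counts in the PANC-1 siRNA libraries, against 166 in the controls, and 49 counts in the MIA PaCa-2 siRNA libraries, against 2 in the controls. The ratio of rates was 1.10 (exact 95% interval 0.892 to 1.36) in PANC-1 and 22.9 (5.998 to 194) in MIA PaCa-2. Of those 49 counts most came from siRNA replicate 1, at 1.18 CPM, with 0.44 and 0.17 CPM in replicates 2 and 5. CASS4, a scaffold of the Cas family at focal adhesions, had 7 counts in the PANC-1 siRNA libraries, against 17 in the controls, a ratio of 0.371 (0.130 to 0.941), and 48 counts in the MIA PaCa-2 siRNA libraries, against 13 in the controls, a ratio of 3.44 (1.84 to 6.93). Its siRNA and control libraries did not overlap in either line and moved in opposite directions. TMEM86A, which breaks down lysoplasmalogens, had 0 counts in the PANC-1 siRNA libraries, against 11 in the controls, a ratio of 0 with an upper bound of 0.359, and 52 counts in the MIA PaCa-2 siRNA libraries, against 61 in the controls, a ratio of 0.795 (0.539 to 1.17). These intervals cover counting error only. In PANC-1 siRNA replicate 3, which was left out, TMEM86A stood at 0.65 CPM, and with all 12 libraries its line difference turned to 0.51. That library carried MIA PaCa-2 transcripts, so its PANC-1 level of TMEM86A cannot be told from the mixing.

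The genes that DESeq2 called for the response within a line were set side by side in both lines. DESeq2 called RBM3 alone for the PANC-1 response (0.00543% of 18422) and 29 genes for the MIA PaCa-2 response (0.157%); edgeR called none in PANC-1, with 198 genes there (1.07%) at an unadjusted p under 0.05, and RBM3 and CCND3 for the MIA PaCa-2 response (0.0109%), with 665 genes (3.61%). The PANC-1 response had the same sign in 26 of the 29, and it was the smaller in all 29, which their choice by the MIA PaCa-2 response favours. In 12 of the 29 the PANC-1 siRNA libraries also lay beyond every PANC-1 control in the MIA PaCa-2 direction, where the groups did not overlap in either direction for 12.4% of all genes in PANC-1 and for 8.07% in MIA PaCa-2.

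Several of these 12 had close responses in both lines. PPP2R1B, a scaffold subunit of protein phosphatase 2A, had 102 and 97.2 CPM in the PANC-1 siRNA libraries, against 73.5, 54.9 and 52.4 CPM in the controls, and 95.3, 93.2 and 116 CPM in the MIA PaCa-2 siRNA libraries, against 64.5, 51.7 and 49.8 CPM in the controls. The siRNA libraries lay above every control in both lines, and its line difference was -0.15 (SE 0.26). The other genes with higher values in both lines were MCFD2, which exports cargo from the endoplasmic reticulum, SMAP1, a GTPase activator of Arf6, SRPRA, the receptor subunit for signal recognition particles, MBTPS1, the site-1 protease of the Golgi, PIP4K2A, a phosphoinositide kinase, and EPB41L1, a membrane skeleton protein. Their PANC-1 responses were 0.36 to 0.69 and their MIA PaCa-2 responses 0.68 to 1.06. MORF4L1, a chromodomain protein of histone acetyltransferase complexes, was lower in both, at 275 and 299 CPM in the PANC-1 siRNA libraries, against 400, 436 and 455 CPM in the controls, and 153, 156 and 128 CPM in the MIA PaCa-2 siRNA libraries, against 248, 314 and 270 CPM in the controls. The fitted values were -0.59 (SE 0.16) in PANC-1 and -0.93 (SE 0.14) in MIA PaCa-2, and its pseudogene MORF4L1P1, which may share its reads, had -0.61 and -0.76. PRKAG2, a subunit of AMP-activated kinase, and NIPSNAP3A completed the 12 with RBM3. Not all of the 12 were close. NIPSNAP3A had -0.28 (SE 0.23) in PANC-1 and -1.07 (SE 0.20) in MIA PaCa-2, a line difference of 0.78 (SE 0.30). EPB41L1 had 0.36 (SE 0.23) and 1.04 (SE 0.21), a line difference of -0.68 (SE 0.32).

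The other 17 of the 29 overlapped their controls in PANC-1. AMBRA1, a scaffold of autophagy and the part of a ubiquitin ligase that recognises D-type cyclins, had 34.3 and 33.6 CPM in the PANC-1 siRNA libraries, against 31.3, 47.3 and 43.3 CPM in the controls, and 70.5, 82.4 and 87.6 CPM in the MIA PaCa-2 siRNA libraries, against 156, 127 and 153 CPM in the controls. The PANC-1 groups overlapped and the MIA PaCa-2 groups did not, and the line difference was 0.60 (SE 0.27). HIF1AN, the hydroxylase that holds back HIF, had 110 and 155 CPM in the PANC-1 siRNA libraries, against 154, 177 and 176 CPM in the controls, and 56.6, 55.1 and 54.6 CPM in the MIA PaCa-2 siRNA libraries, against 102, 108 and 105 CPM in the controls. Its line difference was 0.57 (SE 0.23), and 0.30 without PANC-1 siRNA replicate 2. RNF14, a ubiquitin ligase, had 0.56 (SE 0.24), PIGN, of glycolipid anchor synthesis, 0.68 (SE 0.33), and TRNP1, a nuclear protein that was at 2.38 CPM or less in MIA PaCa-2, 1.21 (SE 0.34). With negative line differences stood H3-3A, the replacement histone H3.3, at -0.59 (SE 0.26), ERCC5, a nuclease of nucleotide excision repair, at -0.88 (SE 0.39), and ZCCHC2, a zinc finger gene, at -0.59 (SE 0.38). ZCCHC2 stood at -0.28 without PANC-1 siRNA replicate 1 and at -0.96 without PANC-1 siRNA replicate 2. CADPS2, of vesicle exocytosis, and the noncoding AFAP1-AS1 were scarce in MIA PaCa-2. CADPS2 had 104 counts in the siRNA libraries there, against 12 in the controls, and AFAP1-AS1 had 84 counts, against 13. The MIA PaCa-2 groups of AFAP1-AS1 overlapped, at means of 1.00 CPM (SD 0.80) after siRNA and 0.22 CPM (SD 0.11) in the controls. Those of CADPS2 did not overlap, at 1.15 CPM (SD 0.91) and 0.15 CPM (SD 0.076). AFAP1-AS1 overlaps AFAP1 on the other strand, and the strand setting of the counting is not given in the sources used here.

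PRR11 and SKA2, neighbouring genes with roles in cell division, differed less clearly. PRR11 had 28.5 and 19.7 CPM in the PANC-1 siRNA libraries, against 15.9, 21.7 and 20.2 CPM in the controls, and 58.5, 53.9 and 42.2 CPM in the MIA PaCa-2 siRNA libraries, against 29.2, 25.8 and 27.6 CPM in the controls. The MIA PaCa-2 groups were separate, the PANC-1 groups overlapped through siRNA replicate 2, and the line difference was -0.58 (SE 0.31), or -0.33 without that replicate and -0.87 without PANC-1 siRNA replicate 1. SKA2 had 34.8 and 34.2 CPM in the PANC-1 siRNA libraries, against 37.3, 43.3 and 34.3 CPM in the controls, and 88.0, 95.2 and 82.7 CPM in the MIA PaCa-2 siRNA libraries, against 88.6, 94.6 and 75.4 CPM in the controls. Its groups overlapped in MIA PaCa-2, and it had a line difference of -0.19 (SE 0.23) that was -0.080 without PANC-1 control replicate 2. The difference turned to 0.23 with all 12 libraries, which adds the library that carried MIA PaCa-2 transcripts. CIRBP, the cold-inducible relative of RBM3, had 47.7 and 77.3 CPM in the PANC-1 siRNA libraries, against 84.4, 33.1 and 43.5 CPM in the controls, and a line difference of 0.31 (SE 0.48), which was -0.076 without PANC-1 siRNA replicate 2 and 0.80 without PANC-1 control replicate 1.

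With the 11 libraries used, few genes had siRNA and control libraries apart in opposite directions in the lines. Among 11319 genes with a mean of at least 2 CPM in each line, 31 had every siRNA library beyond every control in both lines in opposite directions (0.274%), and 106 had them so in the same direction (0.936%), 64 of them higher (0.565%) and 42 lower (0.371%) after siRNA. Of the 31, 27 were lower in PANC-1 and higher in MIA PaCa-2 (0.239%) and 4 were higher in PANC-1 and lower in MIA PaCa-2 (0.0353%). The 4, named here because they are few and after their values were seen, were TUB, PLS1, QSOX2 and CSRP1-AS1. TUB, the founder of the tubby family, had 17.8 and 18.1 CPM in the PANC-1 siRNA libraries, against 17.0, 15.4 and 17.4 CPM in the controls, and 17.8, 15.1 and 13.5 CPM in the MIA PaCa-2 siRNA libraries, against 22.3, 19.4 and 23.9 CPM in the controls. The separation in PANC-1 was narrow for TUB, and the line differences of the 4 ran from 0.24 for QSOX2, a sulfhydryl oxidase, and 0.45 for PLS1, an actin-bundling plastin, to 0.61 for TUB and 0.62 for CSRP1-AS1. Of the 27, 21 were processed pseudogenes. Both counts depend on single libraries, and fewer libraries make separation easier: with 1 library left out, the count of opposite direction ran from 45 (without MIA PaCa-2 control replicate 1) to 313 (without PANC-1 siRNA replicate 1), and that of the same direction from 115 (without MIA PaCa-2 siRNA replicate 1) to 392 (without PANC-1 siRNA replicate 2). Without PANC-1 siRNA replicate 1 the opposite direction had the higher count, 313 against 218. With all 12 libraries the counts were 13 and 71.

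Ribosomal protein genes and their pseudogenes leaned lower in the PANC-1 response. All 58 ribosomal protein genes tested had a negative line difference, with a median of -0.30, from medians of -0.23 in PANC-1 and 0.091 in MIA PaCa-2, against 51.6% of all genes with a positive one. Only RPS16 had an unadjusted p under 0.05. RPS16, of the small ribosomal subunit, had 2248 and 2237 CPM in the PANC-1 siRNA libraries, against 2943, 3372 and 3087 CPM in the controls, and 723, 646 and 900 CPM in the MIA PaCa-2 siRNA libraries, against 512, 826 and 726 CPM in the controls. The PANC-1 groups were separate and the MIA PaCa-2 groups overlapped, with a line difference of -0.62 (SE 0.26). RPL38, of the large subunit, had 304 and 264 CPM in the PANC-1 siRNA libraries, against 325, 371 and 358 CPM in the controls, and a line difference of -0.51 (SE 0.26).

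Of 363 tested pseudogenes of ribosomal protein genes, 324 had a negative line difference, with a median of -0.60, and 42 had an unadjusted p under 0.05 in the negative direction and 0 in the positive one. They made up 20% of the 210 genes with such a p in the negative direction, against 1.97% of all genes tested, and pseudogenes of all kinds made up 42.9%, against 10.99%. RPSAP61 had 11.3 and 8.81 CPM in the PANC-1 siRNA libraries, against 13.9, 15.4 and 17.1 CPM in the controls, and 12.1, 12.4 and 13.7 CPM in the MIA PaCa-2 siRNA libraries, against 9.003, 10.9 and 10.1 CPM in the controls. Its groups separated in opposite directions in the lines, with a line difference of -0.97 (SE 0.30). The others among the 10 genes of smallest p were RPL26P19 at -0.73, RPS24P19 at -0.91, RPL4P4 at -0.56, RPS27AP16 at -0.63 and RPL21P28 at -0.67. Reads of such copies can be shared with the parent gene, so the pseudogene values are uncertain as levels of the named copies.

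The ribosomal genes had their lowest level in the deepest libraries of each line. Averaged over the 58 genes, the log2 CPM was 8.60 and 8.40 in the PANC-1 siRNA libraries, against 8.75, 8.68 and 8.77 in the controls, and 9.15, 9.11 and 9.46 in the MIA PaCa-2 siRNA libraries, against 8.80, 9.42 and 9.23 in the controls. The PANC-1 siRNA libraries were the deepest and lowest of their line, and MIA PaCa-2 control replicate 1 was the deepest and lowest of its line. In PANC-1, depth and siRNA therefore cannot be told apart. Among the PANC-1 controls the shallowest library, replicate 2, had the lowest value, 8.68. With the log2 total count as a covariate the median line difference was -0.12, with 55 of 58 negative, and without MIA PaCa-2 control replicate 1 it was -0.13, with 56 of 58 negative. In all 26 alternative fits it stayed negative, from -0.44 to -0.12.

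**Figure D3:**
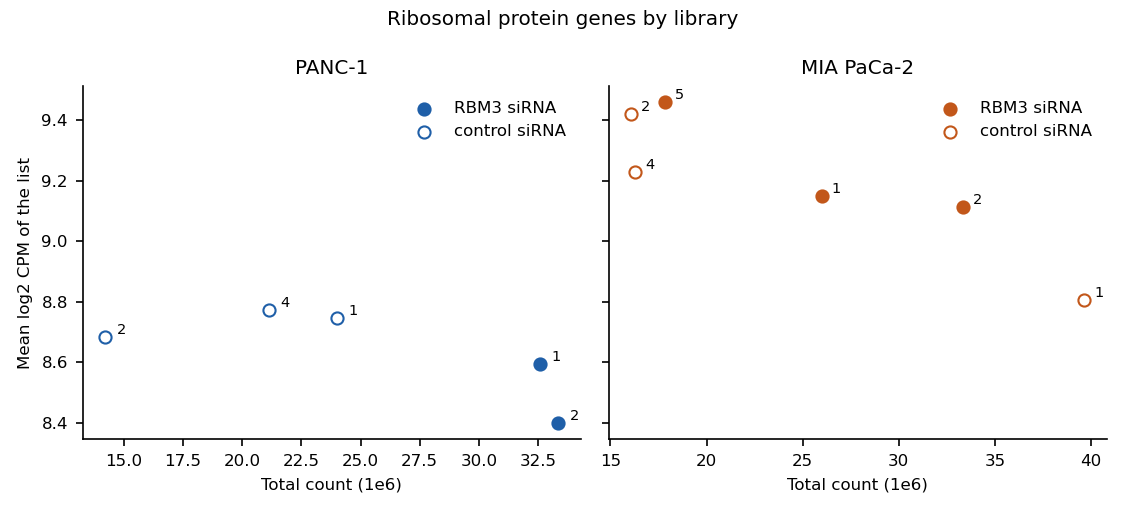
Mean log2 CPM of 58 ribosomal protein genes against the total count of each library, PANC-1 left and MIA PaCa-2 right, siRNA filled and control open, with replicate numbers. In each line the deepest libraries hold the lowest values, 8.40 in PANC-1 siRNA replicate 2 and 8.80 in MIA PaCa-2 control replicate 1.

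Among the other lists, several leaned to one side without a member called. Over all genes tested, 51.6% had a positive line difference. Oxidative phosphorylation, the mitochondrial respiratory chain and its ATP synthase, had 32 of 34 members negative and a median of -0.20. In the alternative fits the median ran from -0.44 without PANC-1 siRNA replicate 1 to -0.041 without PANC-1 siRNA replicate 2, so its size depended on single libraries. COX6C, a cytochrome oxidase subunit, had 148 and 117 CPM in the PANC-1 siRNA libraries, against 137, 134 and 151 CPM in the controls, and 87.5, 74.8 and 64.9 CPM in the MIA PaCa-2 siRNA libraries, against 54.9, 64.1 and 44.7 CPM in the controls. Its MIA PaCa-2 groups did not overlap and its line difference was -0.57 (SE 0.27), while that of COX7A2 was -0.44 (SE 0.22), or -0.27 without PANC-1 siRNA replicate 2. The mitosis list had 29 of 34 negative with a median of -0.25, and KIF23, a kinesin of the midbody, and NUSAP1, a spindle protein, had -0.29 (SE 0.24) and -0.35 (SE 0.30). This lean rested on PANC-1 siRNA replicate 2, without which the median was 0.062, KIF23 stood at -0.12 and NUSAP1 at -0.091. Without PANC-1 siRNA replicate 1, KIF23 stood at -0.48 and NUSAP1 at -0.66. SEC61G, a subunit of the channel into the endoplasmic reticulum, had 104 and 107 CPM in the PANC-1 siRNA libraries, against 146, 133 and 135 CPM in the controls, and a line difference of -0.59 (SE 0.23). Its list, of entry to and exit from the endoplasmic reticulum, did not lean negative. There 13 of 20 members were positive, the median was 0.080, and only SEC61G had an unadjusted p under 0.05 by edgeR.

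Targets of ATF4, the transcription factor of amino acid shortage and related stress, had 22 of 24 members positive, against 51.6% of all genes tested. Their median line difference was 0.56, from medians of 0.19 in PANC-1 and -0.28 in MIA PaCa-2. The median stayed between 0.27 and 0.82 in the alternative fits, and 1 member had an unadjusted p under 0.05. That member, SLC7A11, the cystine transporter, had 28.9 and 151 CPM in the PANC-1 siRNA libraries, against 74.9, 11.6 and 23.3 CPM in the controls, and 5.24, 4.21 and 1.32 CPM in the MIA PaCa-2 siRNA libraries, against 28.98, 3.79 and 6.92 CPM in the controls. Its groups overlapped in both lines, and its high values were those of the PANC-1 pair that stood apart and of MIA PaCa-2 control replicate 1, and the line difference was 3.18 (SE 1.23), or 1.55 without PANC-1 siRNA replicate 2. PSAT1, of serine synthesis, had 0.70 (SE 0.35), or 0.45 without MIA PaCa-2 control replicate 1. Averaged over the list's genes, the log2 CPM was 6.52 and 6.65 in the PANC-1 siRNA libraries, against 6.63, 5.88 and 6.41 in the controls, and 5.94, 5.59 and 5.02 in the MIA PaCa-2 siRNA libraries, against 6.31, 5.37 and 6.06 in the controls, and these groups overlapped in both lines.

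The interferon list had 25 of 28 members positive, against 51.6% of all genes tested. Its median of 0.48 became -0.081 without MIA PaCa-2 control replicate 1. That library had a list mean of 4.31 in log2 CPM, with 2.77 and 3.18 in the other MIA PaCa-2 controls, and the summed markers of a pair of other cell types were also highest there. The 6 leukocyte markers summed to 11.9 to 13.8 CPM in the MIA PaCa-2 siRNA libraries, against 9.94 to 24.1 CPM in the controls, and the 5 endothelial markers to 0.73 to 1.06 CPM in the siRNA libraries, against 0.37 to 8.57 CPM in the controls. Single genes made most of these sums in that library: CD14 was at 21.7 CPM with PTPRC at 0.025 CPM, and CDH5 was at 8.02 CPM with PECAM1 and KDR at 0. Their part in the interferon values was not tested. IFI44 had 1.37 (SE 0.60) and OAS3 1.22 (SE 0.86), with 0.71 and -0.064 without that control library, and OAS3 at 1.90 without MIA PaCa-2 siRNA replicate 5. OAS3 stood at 48.3 CPM in that control library and at 19.0 CPM or less in the other MIA PaCa-2 libraries. Targets of p53 had 15 of 22 positive, against 51.6% of all genes tested, and a median of 0.29, between 0.13 and 0.42 in the alternative fits. MDM2, the ubiquitin ligase of p53, had 81.0 and 100.4 CPM in the PANC-1 siRNA libraries, against 80.3, 112 and 93.5 CPM in the controls, and 51.5, 38.8 and 38.2 CPM in the MIA PaCa-2 siRNA libraries, against 77.8, 52.5 and 70.4 CPM in the controls. Its groups overlapped in PANC-1 and not in MIA PaCa-2, with a line difference of 0.57 (SE 0.30), and RRM2B, a ribonucleotide reductase subunit, had 0.46 (SE 0.26). The NF-kB and YAP/TEAD target lists, with medians of 0.30 and 0.27, each changed sign without PANC-1 siRNA replicate 2.

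**Figure D4:**
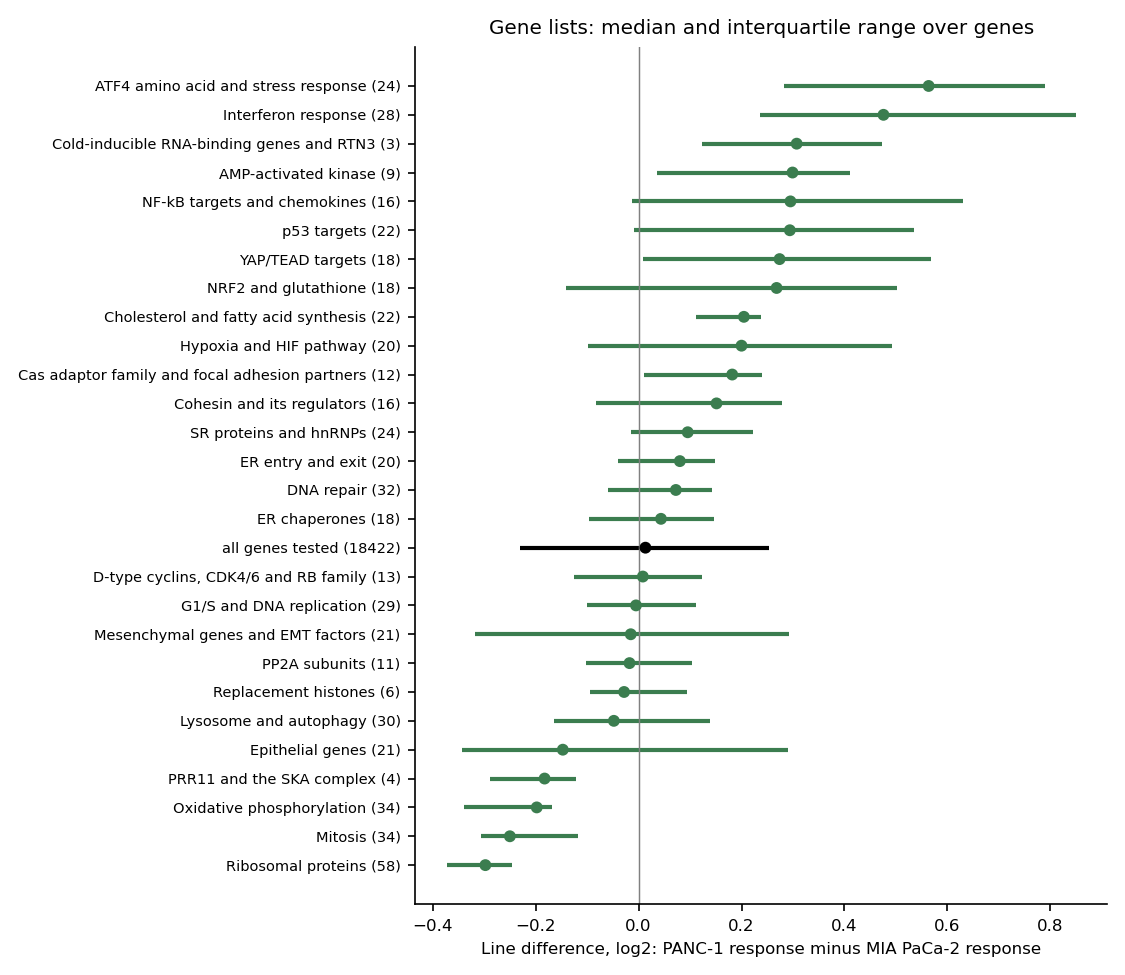
Median (point) and interquartile range over genes (bar) of the line difference, PANC-1 response minus MIA PaCa-2 response in log2, for 27 gene lists with the number of tested members in parentheses; all genes tested are in black. The ATF4 list lies highest at 0.56 and the ribosomal protein list lowest at -0.30, around 0.013 for all genes.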

How the data were processed

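The authors deposited 1 table of raw read counts per Ensembl gene for 12 paired-end RNA-seq libraries (75 bp reads). The submitters' processing notes name STAR 2.5.2a and Subread's featureCounts, with Picard, on hg19. For the annotation release, strand setting and duplicate handling, the sources used here state nothing.

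Of 63677 rows, 39699 had a symbol in the name table, and no row was blank or a total. The 11 libraries were fitted with edgeR 4.0.16 in R 4.3.3 (TMM, filterByExpr at 10 counts, quasi-likelihood F test, 4 group means, 7 residual degrees of freedom), which kept 18422 genes, and p-values were Benjamini-Hochberg adjusted over all of them. CPM use TMM library sizes (plain totals for marker lists), and an SE is the log2 change divided by the square root of F. DESeq2 1.42.0 and limma 3.58.1 (voom) were alternatives, as were other scalings, filters, covariates, blocks and libraries left out. A limit of 3 counts corresponds to 0.0757 to 0.211 CPM per library; intervals cover counting error only. The fit was tested on simulated data.

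Named genes were RBM3, PRR11, SKA2 and CCND3, the genes called for the line difference, the 10 in each direction with the smallest p at 2 CPM or more in each line, the 5 smallest p at any level, the 2 smallest p in each list described by members, and the genes DESeq2 called within a line. CCND1, CCND2, STAG2, SMC1A and the 4 genes higher in PANC-1 and lower in MIA PaCa-2 were added after their values were seen. Members, lists and the rule were chosen with earlier results of these data known. Gene types come from GENCODE by identifier, and start windows from RefSeq. Same-numbered libraries did not deviate together: the correlation of their deviations was -0.78 and -0.46 in PANC-1 and 0.094 and -0.13 in MIA PaCa-2. With 2 PANC-1 siRNA libraries the deviations from their mean are mirror images, so the PANC-1 values are not independent. The correlations showed no pairing by number, and they cannot tell whether same-numbered libraries were handled together.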

Additional observations from a re-analysis of the deposited data

Results flagged for a closer look

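The CCND3 line difference passed DESeq2's test of the difference itself, with an adjusted p of 0.0361 and a higher value in 3 of 3 MIA PaCa-2 siRNA libraries than in any MIA PaCa-2 control. Its size was -1.47 by edgeR, which did not call it (adjusted p = 0.999995), and neither did limma-voom. The DESeq2 call was lost when any one control library of either line was left out.

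In 9 other named genes every siRNA library lay beyond every control in both lines, in opposite directions. TUB, PLS1, CSRP1-AS1 and QSOX2 were named because of this property. CASS4, RPSAP61, RPS24P19, RPL4P4 and OOEP were named for a small p of the line difference in these same libraries, which favours the property. The count of 9 therefore follows from the choice and is no separate result. Among 11319 genes with a mean of at least 2 CPM in each line, 31 had it (0.274%). CASS4 was below that level and is not among the 31. The difference between these directions was not tested beyond the fits above, where none of the 9 was called. The line difference was -3.18 for CASS4, which had few counts, -0.97 for RPSAP61, -0.91 for RPS24P19, -0.56 for RPL4P4 and -0.67 for OOEP, all lower in the 2 PANC-1 siRNA libraries and higher in 3 of 3 MIA PaCa-2 siRNA libraries than in the controls. It was 0.61 for TUB, 0.45 for PLS1, 0.62 for CSRP1-AS1 and 0.24 for QSOX2, all with the opposite order.

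PANC-1 siRNA replicate 3, which entered no main comparison, held transcripts of MIA PaCa-2. The 44 genes examined had at least 20 CPM in MIA PaCa-2 and at most 1% of that in the other PANC-1 libraries. Over them, replicate 3 stood at a median of 42.7% of the MIA PaCa-2 level (quartiles 35.9% and 51.3%). The highest value of any other PANC-1 library, 0.995%, follows from that choice of genes. The choice set no limit on replicate 3.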

How the results depend on the processing

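Under the alternatives, 7 values of named genes changed sign, 2 newly passed the threshold and 1591 kept their direction and side of it. SKA2 turned to 0.23 with all 12 libraries in edgeR and 0.20 in DESeq2, and TMEM86A to 0.51 and 0.48. Those fits include PANC-1 siRNA replicate 3, which carried MIA PaCa-2 transcripts. With 1 library left out, PPP2R1B ran from -0.28 to 0.031 (0.031 without PANC-1 control replicate 1), CIRBP from -0.076 (without PANC-1 siRNA replicate 2) to 0.80, and OAS3 from -0.064 (without MIA PaCa-2 control replicate 1) to 1.90. For the line difference, edgeR called 0 genes, and an unadjusted p under 0.05 gave 358. DESeq2 called 1, called 3 with all 12 libraries (CCND3, GJB5 and 1 without a symbol), and called 1 in the fits without MIA PaCa-2 siRNA replicate 1, 2 or 5, all chosen after seeing the data except the 11-library fit. For PANC-1, edgeR called 0 genes, and 1 came with DESeq2, with no filter, with the pair that stood apart set apart and with both pairs set apart, and 3 with DESeq2 on 12 libraries. For MIA PaCa-2 edgeR called 2. The count was 29 with DESeq2, 1 with limma-voom, median-of-ratios factors, library size alone or depth as a covariate, 4 with no filter or with the PANC-1 pair set apart, 37 with both pairs set apart, 21 with DESeq2 on 12 libraries, and 0 to 3 with 1 library left out. With a replicate block, over both lines or within each line, MIA PaCa-2 had 0 calls and the line difference and PANC-1 had 0. Same-numbered libraries showed no shared deviation, and the PANC-1 deviations ran against the numbers. The cause of these changes was not tested. The 31 genes of opposite response became 17 at a mean of 10 CPM, 13 with all 12 libraries and 45 to 313 with 1 library left out, and the 106 of the same direction 115 to 392. Depth limits low genes: 3 counts correspond to as much as 0.211 CPM.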
